A study of Mus musculus with 6 samples.

Results

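The NR4A, EGR and IER immediate-early genes were followed in liver sinusoidal endothelial cells, which form the porous wall of the small blood channels between plates of hepatocytes. The set holds 10 genes of the 22298 in the deposited table, chosen by symbol: the nuclear receptor genes Nr4a1, Nr4a2 and Nr4a3, the zinc finger factor genes Egr1, Egr2 and Egr3, the genes Ier2, Ier3 and Ier5, and Zfp36. All 10 had a row of their own and all passed the filter on low counts. The study compared cells of wild-type mice at 2 ages by poly(A)-selected RNA sequencing, with 3 libraries in each group. The libraries labelled control are replicates 1, 2 and 3 and carry an age of 24 months, whereas the libraries labelled aging are replicates 2, 3 and 5 and carry an age of 8 weeks. The design text names both ages but not which group holds which, so the age of either group is unsettled, and every direction given here is that of the libraries labelled aging against those labelled control. Nothing in the labels tells if the libraries of a group stem from different mice, and the p-values therefore measure the spread between these libraries, which may be technical.

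Immediate-early genes are transcribed within minutes of a signal, from factors already present in the cell, and their transcripts decay fast. Growth factor signals act on many of them through serum response factor and its ELK partners, which bind the CArG box, and cyclic AMP and calcium act through CREB, which binds the cyclic AMP response element (CRE). NR4A proteins are orphan nuclear receptors whose activity is set mainly by their abundance, and EGR proteins bind GC-rich DNA and are held back by the corepressors NAB1 and NAB2. ZFP36, or tristetraprolin, works after transcription by binding AU-rich elements and bringing the CCR4-NOT deadenylase to the mRNA. Transcripts of this class are also known to be induced when tissue is dissociated into cells, and how these cells were isolated is not given in the sources used here.

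The stretch of 250 bases before the RefSeq start of the 3 NR4A genes is shown because all 3 transcripts rose together in the libraries labelled aging (build GRCm38.p6, each on the coding strand of its gene). Capitals mark the CRE half-site, TGACG or CGTCA according to strand, and in Nr4a1 also 1 EGR site.
Nr4a1, chr15:101266596-101266845, plus strand: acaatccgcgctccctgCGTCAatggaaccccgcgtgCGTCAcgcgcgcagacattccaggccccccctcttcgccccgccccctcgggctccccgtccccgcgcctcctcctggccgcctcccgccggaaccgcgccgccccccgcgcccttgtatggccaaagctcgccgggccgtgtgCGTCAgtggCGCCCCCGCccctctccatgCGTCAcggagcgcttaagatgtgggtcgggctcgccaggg
Nr4a2, chr2:57124004-57124253, minus strand: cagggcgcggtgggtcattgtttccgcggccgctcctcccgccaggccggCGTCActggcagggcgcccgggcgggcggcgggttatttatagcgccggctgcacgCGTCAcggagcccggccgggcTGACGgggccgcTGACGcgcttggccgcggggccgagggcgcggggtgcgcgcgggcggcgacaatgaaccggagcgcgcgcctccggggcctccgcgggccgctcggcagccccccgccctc
Nr4a3, chr4:48045055-48045304, plus strand: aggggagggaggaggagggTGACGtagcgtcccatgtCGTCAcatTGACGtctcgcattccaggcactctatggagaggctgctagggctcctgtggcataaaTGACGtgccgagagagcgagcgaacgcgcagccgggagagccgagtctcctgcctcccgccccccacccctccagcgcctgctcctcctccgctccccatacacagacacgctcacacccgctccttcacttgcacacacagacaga
Each of these 3 windows held 4 half-sites. Of the other genes with a window searched, only Egr2 had half-sites, at most 2 in a window. Egr1, which fell, was not searched, so half-sites cannot be set against the calls. At least 1 half-site was present in 17.7% of all 32817 RefSeq windows of the same length, and at least 4 in 0.137%. The minimum of 4 was chosen after the windows had been read, and the RefSeq windows were not matched for base composition. None of the 3 held a full CRE, TGACGTCA, which contains 2 overlapping half-sites and was found in 1.55% of windows. Counted from the start, the half-sites lay between positions -233 and -36 in Nr4a1, -200 and -107 in Nr4a2 and -231 and -143 in Nr4a3. The EGR site, GCGGGGGCG or GCGTGGGCG on either strand, was found in 3.06% of windows. Among the 7 of the 10 genes that were searched, it was in the windows of Nr4a1 and Zfp36.

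The CArG box was found in 1.47% of all windows and, among the 7 genes searched, in windows of Egr2 and Zfp36. The sites are shown with 15 bases on each side, in capitals for the box, because this is the element through which serum response factor acts.
Egr2, chr10:67537479-67537518, plus strand: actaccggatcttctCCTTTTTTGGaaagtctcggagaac
Egr2, chr10:67537782-67537821, plus strand: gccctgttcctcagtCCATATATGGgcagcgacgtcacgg
Zfp36, chr7:28379262-28379301, minus strand: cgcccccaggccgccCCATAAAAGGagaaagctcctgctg
The first 2 belong to different annotated starts of Egr2. The first lies at positions -72 to -63 from its start. The second falls in 3 windows, at -72 to -63, -73 to -64 and -133 to -124 from the 3 starts, and the Zfp36 box lies at -58 to -49. The windows of Ier3 and Ier5 held none of the motifs searched, which also included the NR4A element AAAGGTCA (1.34% of windows) and the AP-1 site TGACTCA or TGAGTCA (4.46%). In all, 7 of the 10 genes had a promoter entry that was used, with 11 windows. Egr1, Egr3 and Ier2 were not searched, so the motifs before their starts are not known from this search. A match describes letters in the window and is no evidence of binding.

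Total counts were 15999220 to 17871220 per library, and the 10 genes together took 0.186% to 0.230% of them. Across the transcriptome 12.8% of the 13096 tested genes passed an adjusted p of 0.05 in edgeR's quasi-likelihood test (7.22% with a higher level in aging, 5.59% with a lower one). With upper-quartile scaling, 45.9% of the called genes were higher, against 56.4% in the main fit. The 8 sinusoidal endothelial markers summed to 20031 to 25179 CPM (read counts scaled to a common library total) in control and 20637 to 23756 CPM in aging libraries, and neither these nor the 6 general endothelial markers passed the test. Of the 10 neutrophil markers, each had the higher mean in aging and 7 passed. Their summed level was 235 to 523 CPM in the libraries labelled control and 1621 to 4615 CPM in those labelled aging, and none was at 0. The 6 stellate cell markers, of which 3 fell, summed to 36.9 to 44.1 CPM against 18.6 to 20.1 CPM. Macrophage and hepatocyte marker sums overlapped between the groups, at 1125 to 1728 against 744 to 1908 CPM and at 620.1 to 780.5 against 617 to 718 CPM, and no marker of either list passed. T and NK cell markers summed to 18.1 to 50.4 against 15.1 to 37.3 CPM with 1 of 6 higher, and B and plasma cell markers to 26.5 to 67.5 against 55.3 to 235 CPM with 2 of 6 higher. In bulk samples, fewer cells of a type and less RNA per cell cannot be told apart.

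Of the 10 genes, Nr4a1, Nr4a2 and Nr4a3 rose and Egr1 fell, while Egr2, Egr3, Ier2, Ier3, Ier5 and Zfp36 did not pass the test. The 3 rises were 1.85-fold to 4.85-fold, and Egr1 fell to 0.565 of its control level. The median log2 fold change was 0.44 over the 10 genes and -0.01 over all tested genes, and the median absolute log2 fold change was 0.60 against 0.23. The 4 calls of 10 stand beside a background of 12.8% of all tested genes, or of 14.3% of the 9338 genes at least as abundant as the least abundant of the 10. The CPM of the groups did not overlap for 5 of the 10 genes (4 higher, 1 lower in aging), against 38% of all tested genes (19.2% higher, 18.8% lower). With 3 libraries against 3, an exact permutation test of a single gene cannot go below p = 0.1, so the calls rest on the model fitted across all genes.

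**Figure D1:**
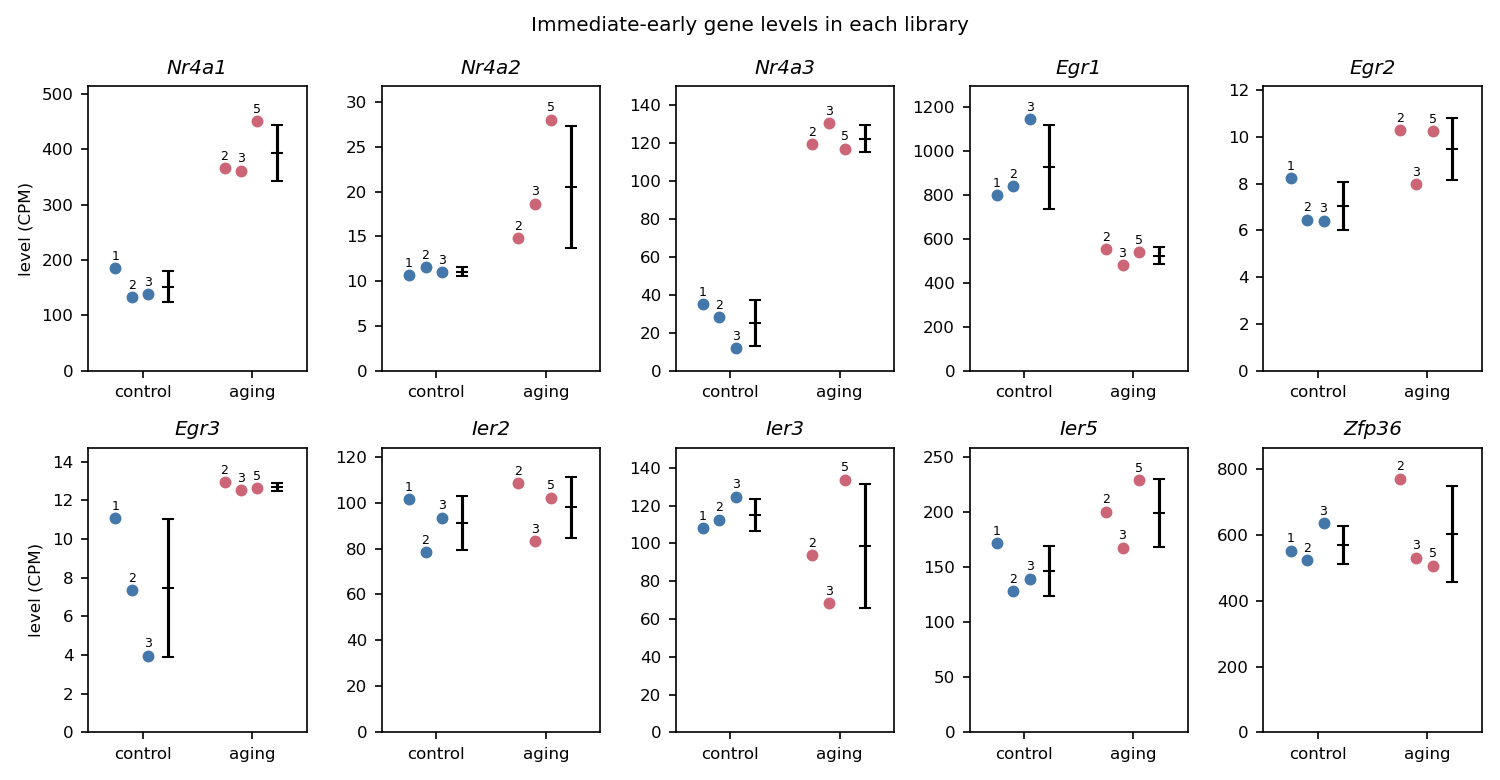
Level of each gene as read counts scaled to a common library total (CPM, linear axis from 0) in the 6 libraries. Points are libraries numbered by replicate, and the bar beside them is the mean with the SD of 3 libraries. Nr4a1, Nr4a2, Nr4a3 and Egr3 lie higher in every library labelled aging than in any labelled control, and Egr1 lies lower.

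Nr4a1 encodes NUR77, the most abundant of the family here. Its level was 185, 133 and 138 CPM in control replicates 1, 2 and 3, and 366, 361 and 451 CPM in aging replicates 2, 3 and 5. Every library labelled aging stood well above every library labelled control, and aging replicate 5 was the highest. The rise was 2.58-fold, from 152 ± 28.7 to 393 ± 50.4 CPM (SD, n = 3 in each group). On the log2 scale the difference was 1.37 ± 0.15 (SE; edgeR adjusted p = 0.00506). Nr4a1 was the only one of the 10 genes whose call held when any single library was left out.

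Nr4a3 encodes NOR1 and showed the largest fold change of the 10. The libraries labelled control held 35.3, 28.3 and 12.1 CPM and the libraries labelled aging 119.6, 131 and 117 CPM. Control replicate 3 was the lowest, and the libraries labelled aging differed little among themselves. The mean went from 25.2 ± 11.9 to 122 ± 7.14 CPM (SD, n = 3 in each group). On the log2 scale the difference was 2.28 ± 0.35 (SE; edgeR adjusted p = 0.0133). Only 1.08% of the tested genes had a larger absolute log2 fold change. Without control replicate 2 the log2 fold change was 2.37 and the call was missed (edgeR adjusted p = 0.0600). Over all 11 alternatives the adjusted p ran from 2.35e-11 with DESeq2 to 0.245 with edgeR.

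Nr4a2 encodes NURR1. Its FPKM was the lowest of the family in every library labelled aging (FPKM, fragments per kilobase of transcript, is the deposited measure scaled to depth and length), and its level in CPM was 10.7, 11.6 and 11.0 CPM in the libraries labelled control and 14.8, 18.7 and 28.0 CPM in those labelled aging. The libraries labelled control were close together, and in those labelled aging the highest was 1.90 times the lowest. The mean went from 11.1 ± 0.462 to 20.5 ± 6.80 CPM (SD, n = 3 in each group). On the log2 scale the difference was 0.89 ± 0.23 (SE; edgeR adjusted p = 0.0447). This call was missed without control replicate 1, 2 or 3 or aging replicate 3, where the adjusted p of edgeR was 0.0798 to 0.135. Over all 11 alternatives the adjusted p ran from 0.00492 with DESeq2 to 0.135 with edgeR. The counts behind it were 175 to 206 per library labelled control and 257 to 482 per library labelled aging.

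Within the family the balance between the genes differed by library. Per unit of length, Nr4a3 stood at 4.71 ± 2.31 FPKM against 3.41 ± 0.123 FPKM for Nr4a2 in the libraries labelled control, where the 2 genes overlapped. In the libraries labelled aging the FPKM of Nr4a3 was 22.3 ± 1.71 and that of Nr4a2 5.96 ± 1.86 (SD, n = 3), and they did not overlap. The ratio of Nr4a1 to Nr4a3 in FPKM was 11.9, 11.1 and 25.5 in control replicates 1, 2 and 3, and 6.73, 6.26 and 8.54 in aging replicates 2, 3 and 5. These ratios are descriptions and were not tested.

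Egr1, which encodes a zinc finger factor induced by growth factors and shear, moved the other way. Its level was 799, 841 and 1146 CPM in control replicates 1, 2 and 3 and 554, 480.4 and 540.0 CPM in aging replicates 2, 3 and 5. The groups did not overlap, and control replicate 3 was the highest library. The mean fell from 929 ± 190 to 525 ± 39.1 CPM (SD, n = 3 in each group). On the log2 scale the difference was -0.82 ± 0.15 (SE; edgeR adjusted p = 0.0159). The call was missed without control replicate 2 (log2 fold change -0.89) or aging replicate 3 (-0.76), with edgeR adjusted p = 0.0547 and 0.0529. Over all 11 alternatives the adjusted p ran from 2.58e-05 with DESeq2 to 0.345 with edgeR.

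Egr2 and Egr3, related factors at far lower levels, did not pass and had fold changes in the opposite direction to Egr1. Egr3 stood at 11.1, 7.36 and 3.96 CPM in the libraries labelled control and at 12.9, 12.5 and 12.6 CPM in those labelled aging. The groups did not overlap, but control replicate 1 lay close to the libraries labelled aging. The log2 fold change was 0.76 ± 0.33 (SE; edgeR adjusted p = 0.163), with a 95% interval of -0.01 to 1.53. The lowest value, control replicate 3, rested on 63 counts, with an exact 95% binomial interval of 3.03 to 5.04 CPM of the raw total that covers counting error only. Egr2 stood at 8.22, 6.46 and 6.42 CPM against 10.3, 7.97 and 10.2 CPM, a log2 fold change of 0.43 ± 0.18 (SE; edgeR adjusted p = 0.141). Aging replicate 3 lay below control replicate 1, so the groups overlapped.

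Control replicate 3 had the lowest Nr4a3, the lowest Egr3 and the highest Egr1 of the 6 libraries. Its log2 CPM lay 2.12 below the mean of the 6 libraries for Nr4a3 and 1.21 below it for Egr3, and 0.73 above it for Egr1. The summed neutrophil marker level was also lowest in this library, at 235 CPM, and the part of these cells in the result was not tested. Without it, the log2 fold change of Nr4a3 was at its lowest of the 6 omissions, 1.94, and that of Egr1 was smallest in size, -0.64. The log2 fold change of Egr3 was 0.46 without control replicate 3 and 1.16 without control replicate 1, and neither passed (edgeR adjusted p = 0.231 and 0.0644, against 0.0324 to 0.924 over all 11 alternatives).

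**Figure D2:**
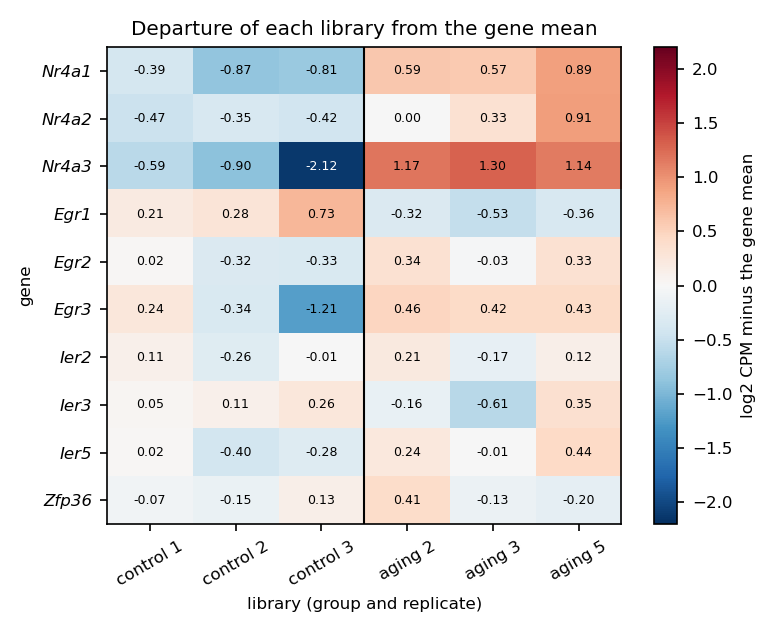
Log2 CPM of each gene (rows) in each library (columns, by group and replicate) minus that gene's mean over the 6 libraries. The vertical line parts the groups, and control replicate 3 departs most for Nr4a3, at -2.12, and Egr3, at -1.21.

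None of the 3 IER genes passed. Ier5, a nuclear protein that acts on the heat-shock factor HSF1, came closest, at 172, 128 and 139.5 CPM in the libraries labelled control and 200.03, 168 and 229 CPM in those labelled aging. Aging replicate 3 lay below control replicate 1. The log2 fold change was 0.44 ± 0.15 (SE; edgeR adjusted p = 0.0882), with a 95% interval of 0.10 to 0.79 before adjustment.

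Ier3, which encodes a regulator of cell death, stood at 108, 113 and 125 CPM in the libraries labelled control. The libraries labelled aging held 93.7, 68.5 and 133.7 CPM and so included both the lowest and the highest value of the 6. The log2 fold change was -0.22 ± 0.23 (SE; edgeR adjusted p = 0.549), with a 95% interval of -0.77 to 0.33. It was -0.50 without aging replicate 5 and -0.01 without aging replicate 3, and neither passed (edgeR adjusted p = 0.0537 and 0.967). Ier2, a nuclear protein, ranged from 78.3 to 101 CPM and from 83.1 to 108 CPM, with a log2 fold change of 0.10 ± 0.13 (SE; edgeR adjusted p = 0.630) and a 95% interval of -0.20 to 0.41.

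Zfp36 was among the most abundant of the 10 genes in both groups. Its level was 553, 525 and 636 CPM in the libraries labelled control and 772, 532 and 507 CPM in those labelled aging. Aging replicate 2 stood above all the others, and the other two lay within the range of the libraries labelled control or just below it. The log2 fold change was 0.08 ± 0.17 (SE; edgeR adjusted p = 0.785), with a 95% interval of -0.32 to 0.48, and it was -0.13 without aging replicate 2. That library also had the highest summed neutrophil marker level, 4615 CPM, and whether the 2 are linked was not tested. GENCODE M21 lists an antisense gene, Gm44710, that overlaps Zfp36. The strand setting of the counting is not given in the sources used here, and reads of the 2 genes cannot be told apart without it.

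The AU-rich nonamer that ZFP36 is known to bind is shown for Zfp36 itself because it was the only one of the 10 genes with a match in its 3′ UTR (longest annotated in GENCODE M21), where 7.66% of 21021 genes have one. The site is given with 10 bases on each side and the nonamer in capitals, at bases 589 to 597 of that 3′ UTR on chromosome 7.
Zfp36: tatgacgactTTATTTATTgtattaagat
The shorter AU-rich pentamer ATTTA occurred 8.16 times per kilobase in Ier3 and 5.52 times in Nr4a1, against a median of 1.49 over the genes with a 3′ UTR of at least 200 bases, and not at all in Ier2. These are letters in an annotated sequence, and no decay was measured.

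**Figure D3:**
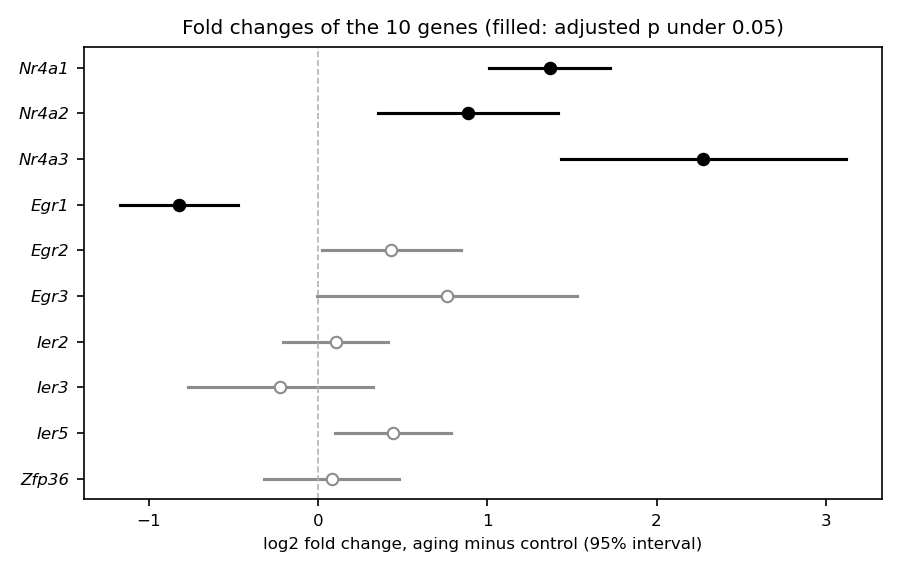
Log2 fold change of each gene, aging minus control, with its 95% interval from the edgeR fit. Filled points passed an adjusted p of 0.05: Nr4a1 at 1.37, Nr4a2 at 0.89, Nr4a3 at 2.28 and Egr1 at -0.82. The dashed line marks no difference.

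The within-group spread was not the same for all genes. In the libraries labelled control, Nr4a3 and Egr3 varied more than 98.4% and 97.7% of the tested genes (SD of log2 CPM), and in those labelled aging they varied more than only 17.8% and 1.92%. Nr4a2 and Ier3 showed the reverse, varying more than 17.8% and 39.9% of the tested genes in the libraries labelled control and more than 84.6% and 85.6% in those labelled aging. With 3 libraries a group these spreads are themselves imprecise, and the difference in spread was not tested.

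On the FPKM scale, which allows levels to be set between genes, the order in the libraries labelled control was Egr1, Zfp36, Ier3, Nr4a1, Ier2, Ier5, Nr4a3, Nr4a2, Egr2 and Egr3. Egr1 stood at 284 ± 53.0 FPKM, Zfp36 at 221 ± 21.5, Ier3 at 103 ± 5.67 and Nr4a1 at 64.7 ± 13.3 (SD, n = 3). In that order the neighbours Nr4a1 and Ier2, Ier2 and Ier5, Nr4a3 and Nr4a2, and Egr2 and Egr3 overlapped. In the libraries labelled aging, Zfp36 came first at 225 ± 57.5 FPKM, followed by Nr4a1 at 159 ± 15.8 and Egr1 at 158 ± 10.9, which overlapped each other. Ier3, Ier2 and Ier5 followed, each overlapping the next, then Nr4a3 and Nr4a2, and last Egr3 and Egr2, which overlapped. The ratio of Nr4a1 to Egr1 in FPKM was 0.317, 0.228 and 0.162 in control replicates 1, 2 and 3 and 0.880, 1.03 and 1.12 in aging replicates 2, 3 and 5.

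The summed FPKM of the 10 genes was 791 ± 75.7 in the libraries labelled control and 786 ± 78.4 in those labelled aging (SD, n = 3). The parts were distributed differently. The NR4A genes made up 7.12% to 11.4% of this sum in the libraries labelled control and 20.5% to 25.8% in those labelled aging, and the EGR genes 32.6% to 40.3% against 20.5% to 21.8%. The EGR part was mostly Egr1, at a mean of 284 FPKM in control and 158 FPKM in aging. Egr2 (2.43 against 3.18 FPKM) and Egr3 (1.94 against 3.2 FPKM) had the higher mean in aging. The IER genes made up 24.6% to 28.3% against 23.7% to 30.7%, and Zfp36 27.7% to 28.0% against 23.0% to 34.0%.

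**Figure D4:**
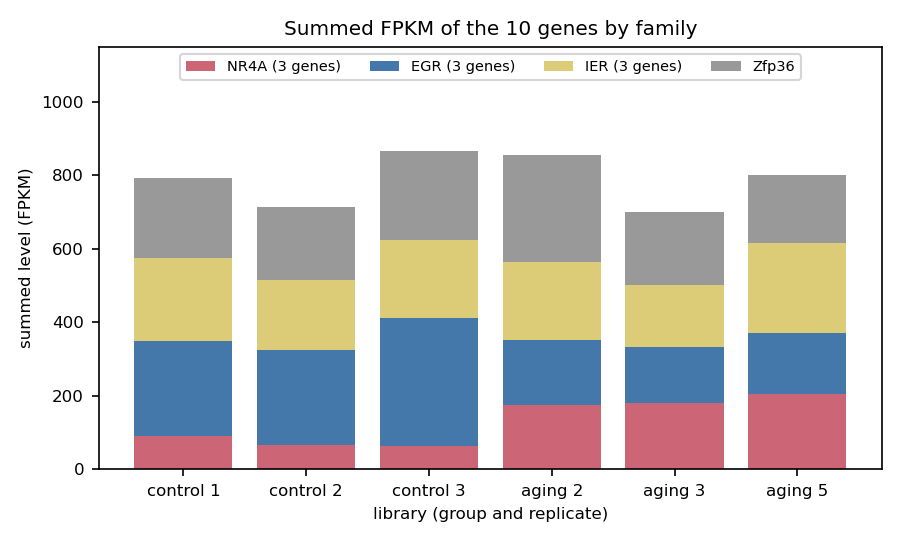
Summed FPKM of the 10 genes in each library, stacked by family (linear axis from 0). The total is 791 ± 75.7 FPKM in the libraries labelled control and 786 ± 78.4 FPKM in those labelled aging (SD, n = 3). In the latter the NR4A part is larger and the EGR part, mostly Egr1, is smaller.

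In the authors' deposited table, 4 of the 10 genes had an FDR under 0.05, which were Nr4a1, Nr4a2, Nr4a3 and Egr3. Over all rows of the authors' deposited table, 3186 of 22298 were under that FDR, or 14.3%. For Egr1 the authors' deposited table lists a log2 fold change of -0.50 (FDR 0.187), and for Egr3 0.96 (FDR 0.0163). For Nr4a1 the log2 fold change in the authors' deposited table is 0.90 (FDR 0.00529), from group values of 74.5 and 139. The plain means of its deposited FPKM are 64.7 ± 13.3 and 159 ± 15.8 (SD, n = 3), so the authors' group value is not that mean. For Egr1 the authors' group values are 261 and 184, beside plain means of 284 and 158 FPKM. For Egr3 they are 1.65 and 3.21, beside 1.94 and 3.2 FPKM. Which libraries entered the authors' values is not given in the sources used here. Their fold changes and FDRs may therefore rest on other libraries, and are no second test of the same values.

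The neutrophil markers moved with the groups, and group accounted for a share of 0.761 of the variance of their mean log2 CPM over the 6 libraries. With that mean as a covariate none of the 10 genes passed in edgeR, 3 had an unadjusted p under 0.05, and 71 genes passed in all. The log2 fold changes in that fit were 1.498 for Nr4a1, 1.65 for Nr4a2, 1.63 for Nr4a3 and -0.57 for Egr1 (edgeR adjusted p = 0.0899, 0.0740, 0.245 and 0.345). Those of Nr4a1 and Nr4a2 were larger than in the main fit (1.37 and 0.89), and those of Nr4a3 and Egr1 smaller in size (2.28 and -0.82 in the main fit). The SEs of these 4 genes were 0.30, 0.31, 0.61 and 0.30, against 0.15, 0.23, 0.35 and 0.15 in the main fit. Egr3 stood at 0.15 in the covariate fit (edgeR adjusted p = 0.924). Because the covariate goes largely with group, this fit cannot tell the 2 apart. The part of neutrophils in these differences was not tested further.

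Other immediate-early genes moved in both directions. Of the 48 tested AP-1 and other immediate-early genes, 18 rose, 4 fell and 26 did not pass, so that 45.8% were called beside the background of 12.8%. Their median log2 fold change was 0.25. With the neutrophil covariate, 0 of the 8 AP-1 genes were called in either direction, and of the 40 others 2 were called higher and 1 lower. Fosl2 then had a log2 fold change of 1.97 and Jun one of -0.78 (edgeR adjusted p = 0.0742 and 0.269). Among 8 AP-1 genes 3 rose and 1 fell. Fosl2, which encodes a FOS-related partner of JUN, stood at 188, 163 and 141 CPM in the libraries labelled control and at 779, 540.5 and 826 CPM in those labelled aging. Jun went the way of Egr1, from 1014, 1003 and 1301 CPM to 519.5, 393 and 601 CPM. Maff, a small MAF factor, and Atf3, a stress-induced factor, rose by 1.73 ± 0.34 and 0.73 ± 0.15 on the log2 scale (SE). Fos and Fosb, which encode the FOS partners of JUN in AP-1, did not pass, with log2 fold changes of -0.44 ± 0.24 and -0.57 ± 0.21 (SE).

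Of the 40 other immediate-early genes, 15 rose, 3 fell and 22 did not pass, with a median log2 fold change of 0.32. The share called was 45%, beside 12.8% of all tested genes. Plk3, a stress-responsive kinase, rose from 33.7 ± 3.13 to 92.7 ± 16.1 CPM, Dusp6, a dual-specificity phosphatase, from 76.4 ± 9.26 to 194 ± 36.3 CPM, and Trib1, a pseudokinase, from 77.2 ± 16.04 to 224 ± 39.1 CPM (SD, n = 3 per group). The flow-responsive factor genes Klf2 and Klf4 fell, at -1.08 ± 0.16 and -1.07 ± 0.21 on the log2 scale, as did Gem, a small GTPase, at -1.14 ± 0.19 (SE). Without control replicate 2 or 3 the rises in this list numbered 5, and without control replicate 1 they numbered 10. With the neutrophil covariate Plk3, Dusp6 and Trib1 were at 0.86, 1.18 and 0.81 on the log2 scale and were not called (edgeR adjusted p = 0.0633, 0.160 and 0.123), whereas Klf2 stayed called at -1.66.

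Of 24 tested kinases and factors 3 rose and 1 fell, with a median log2 fold change of 0.01. The share called, 16.7%, is near the background of 12.8%, so nothing is read from this count, and the genes that passed are given as values. Rps6ka3, which encodes the growth factor-responsive kinase RSK2, had a log2 fold change of 0.99 ± 0.22 (SE), Creb1 one of 0.35 ± 0.09 and Mef2d one of 0.36 ± 0.09, and Mrtfb, a coactivator of serum response factor, one of -0.95 ± 0.21. Srf itself stood at 26.8 ± 1.81 against 36.4 ± 6.47 CPM and did not pass (SD, n = 3 per group; edgeR adjusted p = 0.0745). Crem, which encodes a cyclic AMP-responsive factor, stood at 20.5 ± 1.46 against 68.7 ± 57.5 CPM and did not pass (SD, n = 3 per group; edgeR adjusted p = 0.0846). None of these 24 genes was called without control replicate 1, 2 or 3 or without aging replicate 3, and with the neutrophil covariate 1 was, Rps6ka3.

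Among the relatives of the 10 genes, none of Ier5l, Zfp36l1 and Zfp36l2 passed, with log2 fold changes of -0.09 to 0.39, and Egr4 was too low to test. Of 8 partners and corepressors only Nab2, the EGR corepressor that EGR factors are known to induce, passed, from 15.5, 9.55 and 10.1 CPM to 20.5, 20.7 and 35.7 CPM (log2 fold change 1.13 ± 0.29, SE). The heterodimer partner gene Rxra and the CCR4-NOT scaffold gene Cnot1 did not pass, at -0.20 ± 0.11 and -0.19 ± 0.08 on the log2 scale (SE). Of 8 genes known as EGR1 targets, 2 rose and none fell, which were Nab2 and the coagulation initiator F3, at 3.25 ± 0.548 against 5.91 ± 0.765 CPM (SD, n = 3 per group). Both were missed without control replicate 1, 2 or 3 or aging replicate 3, and F3 also without aging replicate 5, with adjusted p of 0.0520 to 0.156 in edgeR. Neither was called with the neutrophil covariate. The shares called were 12.5% of the partners and 25% of the EGR1 targets, beside 12.8% of all tested genes.

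Of 9 tested transcripts known as ZFP36 targets, 5 rose, 1 fell and 3 did not pass, with a median log2 fold change of 1.09. The share called was 66.7%, beside 12.8% of all tested genes. Cxcl2, a chemokine, stood at 129, 129.5 and 76.6 CPM in the libraries labelled control and at 795, 523 and 514 CPM in those labelled aging. Ptgs2, the inducible cyclooxygenase, rose from 45.7, 52.0 and 29.7 CPM to 427, 228 and 192 CPM, and Ccl3, another chemokine, rose by 1.22 ± 0.19 on the log2 scale (SE). Il10 fell from 7.56 ± 1.53 to 2.36 ± 1.15 CPM (SD, n = 3 per group). Neutrophil marker sums ran in the same order over aging replicates 2, 3 and 5 as these 3 rises, with replicate 2 highest. In control replicates 1, 2 and 3 the sums were 523, 505 and 235 CPM. Cxcl2 and Ptgs2 were also lowest in control replicate 3, but were higher in replicate 2 than in replicate 1. Ccl3, at 22.4, 14.2 and 16.2 CPM, was lowest in control replicate 2. Whether these genes and the neutrophil markers are linked was not tested. With the neutrophil covariate 1 gene of the list was called higher, Ptgs2, and 0 lower. In that fit the log2 fold change of Ptgs2 was 1.19, of Cxcl2 1.43, of Ccl3 0.78 and of Il10 -2.82 (edgeR adjusted p = 0.0431, 0.0538, 0.278 and 0.122). Without control replicate 2 or 3 the rises in this list numbered 2, without control replicate 1 they numbered 3, and Il10 was missed without control replicate 1, 2 or 3 or aging replicate 3.

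Of 9 heat-shock genes, 6 rose and none fell, so that 66.7% were called beside 12.8% of all tested genes. Hsph1 rose from 19.8, 25.5 and 42.8 CPM to 199.6, 307 and 279 CPM, Hspa8 from 865, 935 and 1250.3 CPM to 2538, 2915 and 3031 CPM, and Hsp90aa1 with a log2 fold change of 1.56 ± 0.18 (SE). The strongly inducible pair Hspa1a and Hspa1b, near-identical copies whose separate counts are uncertain, did not pass, at -0.35 ± 0.39 and -0.20 ± 0.39 on the log2 scale (SE). This list kept 5 to 7 rises when any single library was left out, and 6 with the neutrophil covariate.

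Of the 23 list genes named by rule, 11 stayed called through every omission of 1 library, including Fosl2, Jun, Plk3, Dusp6, Trib1, Klf2, Cxcl2 and Ptgs2. The other 12 were missed in at least 1 omission (edgeR adjusted p between 0.0510 and 0.156). Rps6ka3, Mef2d and Mrtfb were missed without control replicate 1, 2 or 3 or aging replicate 3, and Creb1 without any of the 6 libraries. Maff was missed without control replicate 1, 2 or 3, Atf3 when control replicate 2 or 3 or aging replicate 3 was omitted, Klf4 without control replicate 1, 2 or 3 or aging replicate 2, Gem without control replicate 2, and Ccl3 without control replicate 2 or 3.

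**Figure D5:**
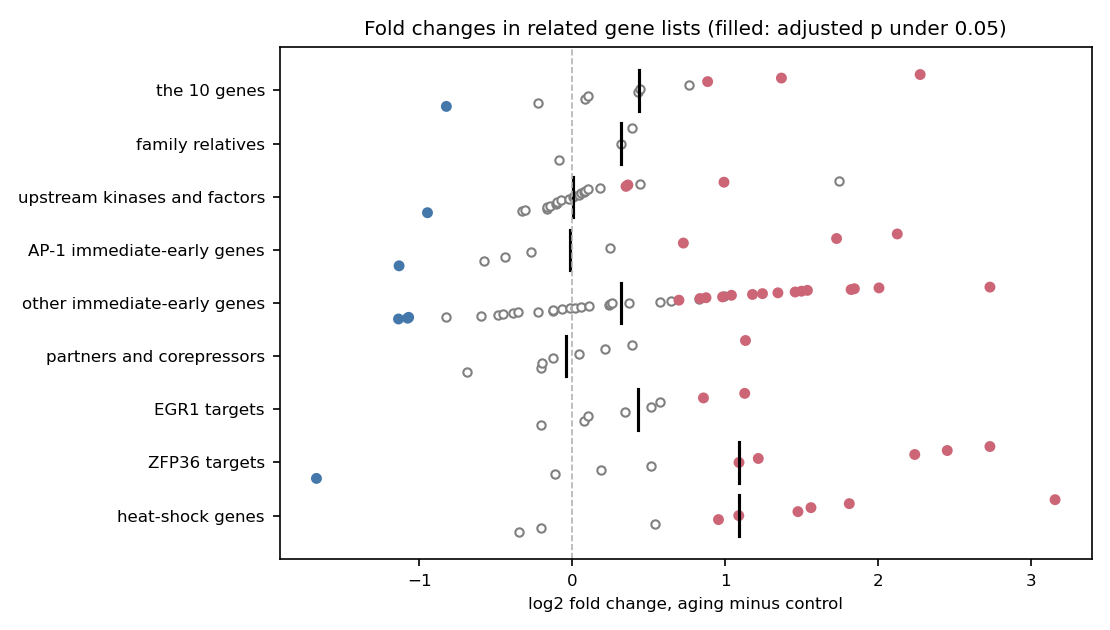
Log2 fold change, aging minus control, of the 10 genes and of each related list (rows). Points are genes, filled where the adjusted p was under 0.05 (red higher, blue lower), and the black bar is the list's median, which is 0.44 for the 10 genes, 0.32 for other immediate-early genes and 1.09 for heat-shock genes.

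The genes whose profile over the 6 libraries lay nearest to a called gene were found by the root-mean-square difference of log2 CPM, each gene centred on its own mean, among 10303 other tested genes with at least 5 CPM. Nearest to Nr4a1 were Mbd4, Litaf and Slco2b1, at 0.06, 0.12 and 0.13. Nearest to Nr4a2 were Sting1, Timeless and Prkab1, at 0.08, 0.08 and 0.08, and nearest to Nr4a3 were Slc7a11, Il1rn and Sgms2, at 0.11, 0.14 and 0.19. Egr1 lay nearest to Bcl2l1, Zfp410 and Snx30, at 0.07, 0.09 and 0.10. With 6 libraries in 2 groups, many genes share such a profile, and no other of the 10 genes was among the 3 nearest of another.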

How the data were processed

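Liver sinusoidal endothelial cells of wild-type mice were sequenced in 6 libraries, after Trizol extraction and oligo(dT) selection using a NEBNext Ultra kit, per the labels' protocols. The submitters' processing notes name RSEM, StringTie 1.3.1, HISAT2, Bowtie2 and fastp 0.18.0 with no role or order. Build, annotation and strand setting: not given in the sources used here.

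Per the file headers, the deposited table holds whole-number counts and FPKM values per library, both made by the authors, and no per-library column was left out. Whether estimated counts were rounded is not stated. The deposited group values are a score of the authors, and the deposited p-value, FDR and log2 fold change columns are their comparison, used only where the authors' table is named. Which libraries entered the group values and that comparison is not given in the sources used here.

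Groups follow the titles. The test on counts was that of edgeR 4.0.16 (R 4.3.3): filterByExpr (minimum count 10, minimum total 15) kept 13096 genes, libraries were scaled by TMM (factors 0.963 to 1.049), and quasi-likelihood dispersions were fitted robustly over the whole table, for a design of group alone, with Benjamini-Hochberg adjustment over all tested genes and a threshold of 0.05. Standard errors were derived from the fold change and the F statistic, as the ratio of the former's size to the root of the latter. CPM carry the TMM factors, and log2 CPM a prior count of 2. The procedure was tested on simulated data. No 2 libraries of a group were alike within counting noise, with 8.40 to 54.5 as chi-square over its degrees of freedom.

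The 10 genes and all lists were chosen with earlier results of these data known. List genes named are the 3 with the smallest adjusted p in each direction among those that passed, and other list genes were named after their values were seen. Alternatives were upper-quartile scaling, DESeq2 1.42.0, no filter, omission of each library, a replicate block and a neutrophil covariate. Promoter sequences are from RefSeq (GRCm38.p6) and 3′ UTRs from GENCODE M21 transcripts.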

Additional observations from a re-analysis of the deposited data

How the results depend on the processing

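The counts of 3 higher and 1 lower gene among the 10 were the same with upper-quartile scaling, DESeq2 and no filter on low counts, under which 1792, 2295 and 1495 of all genes passed. When single libraries were left out, 1 to 3 of the 10 were called higher, 0 to 1 lower, and 268 to 2121 of all genes passed, the fewest without control replicate 2; fewer libraries enter those fits. In the 2 omissions with no lower call, edgeR's unadjusted p of Egr1 was still under 0.05. With the neutrophil covariate, which goes largely with group, 0 of the 10 were higher, 0 lower and 71 of all genes passed. In that fit 2 directions reversed, Ier3 to a log2 fold change of 0.25 and Zfp36 to -0.36, and Zfp36 was also reversed without aging replicate 2, at -0.13, the lowest of its 6 omissions, whose highest was 0.19. None of these 3 values passed, and the cause was not tested. The replicate numbers 2 and 3 occur in both groups. Deviations from the group mean had a correlation of -0.06 and -0.04 between same-numbered libraries. With 3 libraries a group such deviations are tied to each other, so these values cannot tell if the libraries were paired. A fit with the replicate number as a block called 3 of the 10 higher, 1 lower and 1698 of all genes. Replicate 1 is only in control and replicate 5 only in aging, so its group difference rests on replicates 2 and 3 of each group. In that block fit Nr4a2 missed the threshold (edgeR adjusted p = 0.0911) and Egr3 passed it (edgeR adjusted p = 0.0324). Among 35 other named genes, 17 to 32 kept their status, called or not, when a library was left out, and 9 did with the covariate. Of these genes Prkab1 was not called in the main fit (edgeR adjusted p = 0.0627). Counts of 63 to 482 per library limit the precision of Egr2, Egr3 and Nr4a2.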
